A study of Mus musculus with 48 samples.

Results

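The glucuronosyltransferases, sulfotransferases and glutathione transferases of mouse liver were followed through an experiment with 3 antisense oligonucleotides directed against Scarb1. Members were taken by gene symbol alone: rows named Ugt with family, letter and number, Sult with digit, letter and number, or Gst with class letter a, k, m, o, p or t and a number. This gave 46 of the 23930 genes in the count table, of which 10 were Ugt, 21 Sult and 15 Gst genes. A gene was called detected where its mean reached 1 CPM (counts scaled to library size) in at least 1 of the 12 groups, which 32 of the 46 did: 10 of 10 Ugt, 8 of 21 Sult and 14 of 15 Gst genes. No row of the count table matched by symbol for the Ugt1 family or for pi-class glutathione transferases. These genes are therefore not analysed here and are missing from the counts and sums of their families.

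Mice received LX-A1656, LX-A2003 or LX-A3928, each a modified gapmer antisense oligonucleotide, or the vehicle, phosphate-buffered saline (PBS). Gapmers are short synthetic strands with modified ends around a DNA centre, through which RNase H cuts the paired transcript. That transcript was here Scarb1, the high-density lipoprotein receptor of hepatocytes. Livers were taken at 24, 72 and 168 h, on days 1, 3 and 7 after the first administration, and each of the 12 groups of 1 treatment and 1 time held 4 libraries. The dose, the number of doses, the oligonucleotide sequences and modifications, and the strain, sex and age of the mice are not stated in the sources used here. Whether the 4 libraries of a group stem from different mice is not stated either. The p-values thus reflect how far these libraries scatter, which may be technical scatter.

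These enzymes carry out the conjugation phase of detoxification. Ugt proteins sit in the membrane of the endoplasmic reticulum and join glucuronic acid to steroids, bile acids, bilirubin and drugs, Sult proteins in the cytosol pass a sulfate group from the donor PAPS to phenols, steroids and bile acids, and Gst proteins join glutathione to electrophiles or reduce peroxides with it. Hepatocytes hold much of the body's conjugating capacity, and the genes are known to answer to nuclear receptors such as CAR and PXR, to the aryl hydrocarbon receptor and, for many Gst genes, to the stress factor NRF2.

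The libraries held 8140065 to 17191129 counts, and 0.596 to 1.938% of them fell on the 46 members. Scarb1 was lower in each of the 9 comparisons of an oligonucleotide with PBS, at 3.89 to 17.7% of its PBS level at 24 h, 1.45 to 2.57% at 72 h and 2.92 to 5.10% at 168 h. Replicate 3 of LX-A3928 at 168 h stood apart from the other 3 libraries of its group, with a chi-square per degree of freedom over all genes of 130.8 to 215.5 against them, where those 3 gave 14.1 to 82.7 among themselves. In 9 of the 12 groups 1 library was farther from each of the other 3 than these were from each other. Besides the one above, the larger gaps were those of replicate 1 of LX-A1656 at 72 h (51.9 to 72.6, against 12.3 to 22.0 among the others), replicate 4 of LX-A1656 at 168 h (43.4 to 48.1, against 10.0 to 25.9), replicate 4 of LX-A2003 at 168 h (35.6 to 83.0, against 12.8 to 21.6) and replicate 4 of LX-A3928 at 72 h (47.6 to 55.2, against 11.7 to 20.7). The remaining 4, replicate 4 of LX-A1656 at 24 h, replicate 1 of LX-A2003 at 72 h and replicate 4 of PBS at 24 h and 72 h, gave 10.9 to 25.5. Members for LX-A3928 at 168 h are therefore also given without replicate 3 where that ends or adds a call or moves a value by over 1.5 times. Of the other 8 libraries, leaving out replicate 4 of PBS at 72 h ended 1 call of a member named by rule, that of Ugt2b38 given below, and leaving out the other 7 ended none.

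The members lie in clusters of neighbouring genes, and promoters of a few are shown because neighbours and close copies moved differently. Gstm5, Gstm7, Gstm6, Gstm3, Gstm2, Gstm1 and Gstm4 follow each other on chromosome 3, and Ugt2b34, Ugt2b1, Ugt2b35, Ugt2b36, Ugt2b5, Ugt2b37, Ugt2a3 and Ugt2b38 on chromosome 5. RefSeq promoters (build GRCm38.p6) run from 250 bases before to 50 bases after the annotated start, written 5′ to 3′ on the gene's own strand. For 3 Gst genes whose levels changed with the oligonucleotides, Gsta3 lies at chr1:21240335-21240634 on the plus strand, Gstm5 at chr3:107895604-107895903 on the plus strand and Gstm3 at chr3:107969125-107969424 on the minus strand. Capitals mark a match to TGACNNNGC, the core of the antioxidant response element through which NRF2 acts, searched on both strands; Gstm3 had no match.
Gsta3: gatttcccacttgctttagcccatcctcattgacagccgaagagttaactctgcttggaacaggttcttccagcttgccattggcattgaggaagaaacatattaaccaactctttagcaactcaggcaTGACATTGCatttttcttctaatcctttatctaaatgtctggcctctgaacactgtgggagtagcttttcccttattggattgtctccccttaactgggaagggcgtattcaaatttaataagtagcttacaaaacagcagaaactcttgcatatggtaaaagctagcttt
Gstm5: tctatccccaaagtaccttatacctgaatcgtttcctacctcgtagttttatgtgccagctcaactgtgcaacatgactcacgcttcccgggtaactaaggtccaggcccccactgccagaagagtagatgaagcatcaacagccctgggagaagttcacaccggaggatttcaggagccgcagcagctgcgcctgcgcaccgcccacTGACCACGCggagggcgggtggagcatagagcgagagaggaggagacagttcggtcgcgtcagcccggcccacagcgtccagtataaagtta
Gstm3: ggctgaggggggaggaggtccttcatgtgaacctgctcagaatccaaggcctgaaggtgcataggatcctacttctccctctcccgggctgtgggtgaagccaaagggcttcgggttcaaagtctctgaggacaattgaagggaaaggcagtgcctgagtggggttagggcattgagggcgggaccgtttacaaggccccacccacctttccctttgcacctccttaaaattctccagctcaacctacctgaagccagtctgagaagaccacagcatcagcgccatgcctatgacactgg

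The same core stood in 12.4% of all 32851 RefSeq promoters of this length and in those of 3 of the 28 detected members that had an entry, Gsta3, Gstm5 and Gstm7. A match is a description of these letters, and no match says only that they are not in this window. Other cores searched the same way were the HNF1 motif, found in 0.399% of all promoters and, among the detected members, in that of Sult1d1, the STAT core TTCNNNGAA, in 8.3% and in that of Gstm6, and the D-box core TTATGNAA, in 3.38% and in those of Gstt1 and Ugt2b1.

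Among the Ugt2b genes, Ugt2b5, Ugt2b37 and Ugt2b38 are close copies that moved differently, so their promoters are given together, at chr5:87140291-87140590, chr5:87254739-87255038 and chr5:87424154-87424453, all on the minus strand of the same build. Capitals mark the longest run of bases common to all 3, which is 62 bases long.
Ugt2b5: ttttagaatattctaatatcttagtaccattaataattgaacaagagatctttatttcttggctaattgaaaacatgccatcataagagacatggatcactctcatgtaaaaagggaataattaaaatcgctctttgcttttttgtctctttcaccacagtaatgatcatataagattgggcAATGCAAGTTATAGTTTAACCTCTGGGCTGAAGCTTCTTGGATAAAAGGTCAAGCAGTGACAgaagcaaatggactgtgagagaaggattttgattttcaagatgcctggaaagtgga
Ugt2b37: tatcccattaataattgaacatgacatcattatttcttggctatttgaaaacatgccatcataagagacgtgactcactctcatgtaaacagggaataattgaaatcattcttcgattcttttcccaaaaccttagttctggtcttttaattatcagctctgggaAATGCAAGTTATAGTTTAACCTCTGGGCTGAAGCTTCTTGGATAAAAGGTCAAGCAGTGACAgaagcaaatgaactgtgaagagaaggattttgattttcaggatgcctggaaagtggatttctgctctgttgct
Ugt2b38: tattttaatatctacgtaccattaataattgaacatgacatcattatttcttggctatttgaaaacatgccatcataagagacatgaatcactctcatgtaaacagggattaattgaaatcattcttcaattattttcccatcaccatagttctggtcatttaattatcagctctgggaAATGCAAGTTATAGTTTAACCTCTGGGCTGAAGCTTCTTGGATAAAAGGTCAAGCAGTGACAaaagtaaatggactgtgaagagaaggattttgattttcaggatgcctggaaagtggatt

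Over the 300 bases Ugt2b5 shared 76.23% of positions with Ugt2b37 and 84.19% with Ugt2b38, and Ugt2b37 shared 86.94% with Ugt2b38. In coding sequence, from the GENCODE M21 annotation, Ugt2b38 was 97.04% and Ugt2b37 94.65% identical to Ugt2b5, Ugt3a1 was 93.24% identical to Ugt3a2, and Gstm1 was 89.45% identical to Gstm3 and 85.93% to Gstm2. The positions of the AmpliSeq amplicons are not stated in the sources used here, so reads of such pairs may have been shared between them. Each gene was read through its own amplicon, so where genes are ordered by counts below, that order may not follow transcript abundance.

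Of the 14 members that were not detected, Sult2a4 and Sult3a2 had no count in any of the 48 libraries. Sult2a3 and Sult2a6 had 1 count each over all libraries, Sult3a1 2, Sult6b2 3, Sult2a5 and Sult2a7 4 each, Gstt4 and Sult1c1 6 each, Sult6b1 7, Sult2a1 11 and Sult4a1 81. Sult2b1 was not detected by the CPM rule but passed the filter on low counts and was tested. Sult2a2 was detected but did not pass that filter, so that 32 members were tested. In PBS livers at 24 h the Ugt genes with the most counts averaged 1536 ± 253 CPM for Ugt2b1, 1529 ± 65.3 for Ugt2b5 and 1176 ± 82.0 for Ugt2b36 (SD, n = 4). Of the other families, Sult2a8 averaged 788 ± 117 CPM, Sult1a1 399 ± 22.7 and Sult1d1 262 ± 57.0, and Gstm1 2573 ± 177, Gsta3 2383 ± 164 and Gstm2 383 ± 59.4. None of the 32 members differed between PBS livers at 72 h and at 24 h (0.0789% of the 12672 genes tested did), nor between PBS livers at 168 h and at 24 h (1.03% of genes), by edgeR's quasi-likelihood test with Benjamini-Hochberg adjustment. At an unadjusted p under 0.05 there were 0 and 1 members, and DESeq2 called none in either comparison.

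Against PBS few members were called at 24 h and more at 168 h, as was so over all genes. Beside each count stands the share of all genes that were called, with the share higher and the share lower. At 24 h none of the 32 tested members differed with LX-A1656 at an adjusted p under 0.05 (2.86%, with 0.986% and 1.88%; 6 members at an unadjusted p under 0.05, all Gst genes; none by DESeq2), 1 rose with LX-A2003 (2.09%, with 0.939% and 1.15%) and 2 rose with LX-A3928 (3.26%, with 1.68% and 1.58%). At 72 h, 6 members rose and 16 fell with LX-A1656 (48.2%, with 24.7% and 23.4%), 5 rose and 3 fell with LX-A2003 (12%, with 5.48% and 6.55%), and 5 rose and 1 fell with LX-A3928 (9.8%, with 4.47% and 5.33%). At 168 h, 5 rose and 23 fell with LX-A1656 (63.9%, with 34.1% and 29.7%), 5 rose and 17 fell with LX-A2003 (55.1%, with 29.8% and 25.3%), and 8 rose and 10 fell with LX-A3928 (48%, with 27.3% and 20.7%). Without replicate 3 the last comparison gave 6 rises and 18 falls, with 49.1% of all genes called. The counts at 24 h, and the 18 of 32 called with LX-A3928 at 168 h from all libraries, are near the shares over all genes. A fit on only the libraries compared gave other counts: 5, 1 and 6 rises and no fall at 24 h for LX-A1656, LX-A2003 and LX-A3928 (7.47%, 6.87% and 13% of genes called), 9 rises and 9 falls for LX-A2003 at 72 h (22.9%), and 3 rises and 6 falls for LX-A3928 at 168 h (28.3%). In that fit the LX-A3928 calls at 168 h of Ugt2b5, Ugt2b34, Ugt3a2, Gstm1, Gstm4, Gstk1 and Gstt2 were lost (adjusted p of 0.051 to 0.17). The median log2 fold change of the tested members at 168 h was -1.54, -0.62 and -0.29 for LX-A1656, LX-A2003 and LX-A3928, the last being -0.68 without replicate 3, beside 0.10, 0.04 and 0.08 over all genes tested. The 3 comparisons at one time share their 4 PBS libraries. Levels are scaled by edgeR's TMM factors, and scaling to library totals in their place moved the median of all genes to 0.56, 0.45 and 0.39 at 168 h and to 0.27 for LX-A1656 at 72 h. It put the share of higher calls among all genes at 73.8, 77.7 and 77.9% at 168 h, where TMM gave 53.5, 54.0 and 56.9%. At 72 h that share was 66.6% for LX-A1656 and 34.3% for LX-A3928, where TMM gave 51.4 and 45.6%. Member calls then stood at 8 higher and 19 lower, 9 and 14, and 11 and 10 at 168 h, and no called member changed sign. The 11 calls lost with library totals were those of Gstm2 at 24 h and Gsta4 at 72 h for LX-A3928, of Gsto1 and Ugt2b34 at 72 h and Gsta4, Gsto1, Gstt1 and Gstt2 at 168 h for LX-A1656, and of Gsta3, Gstm6 and Ugt2b35 at 168 h for LX-A2003.

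**Figure D1:**
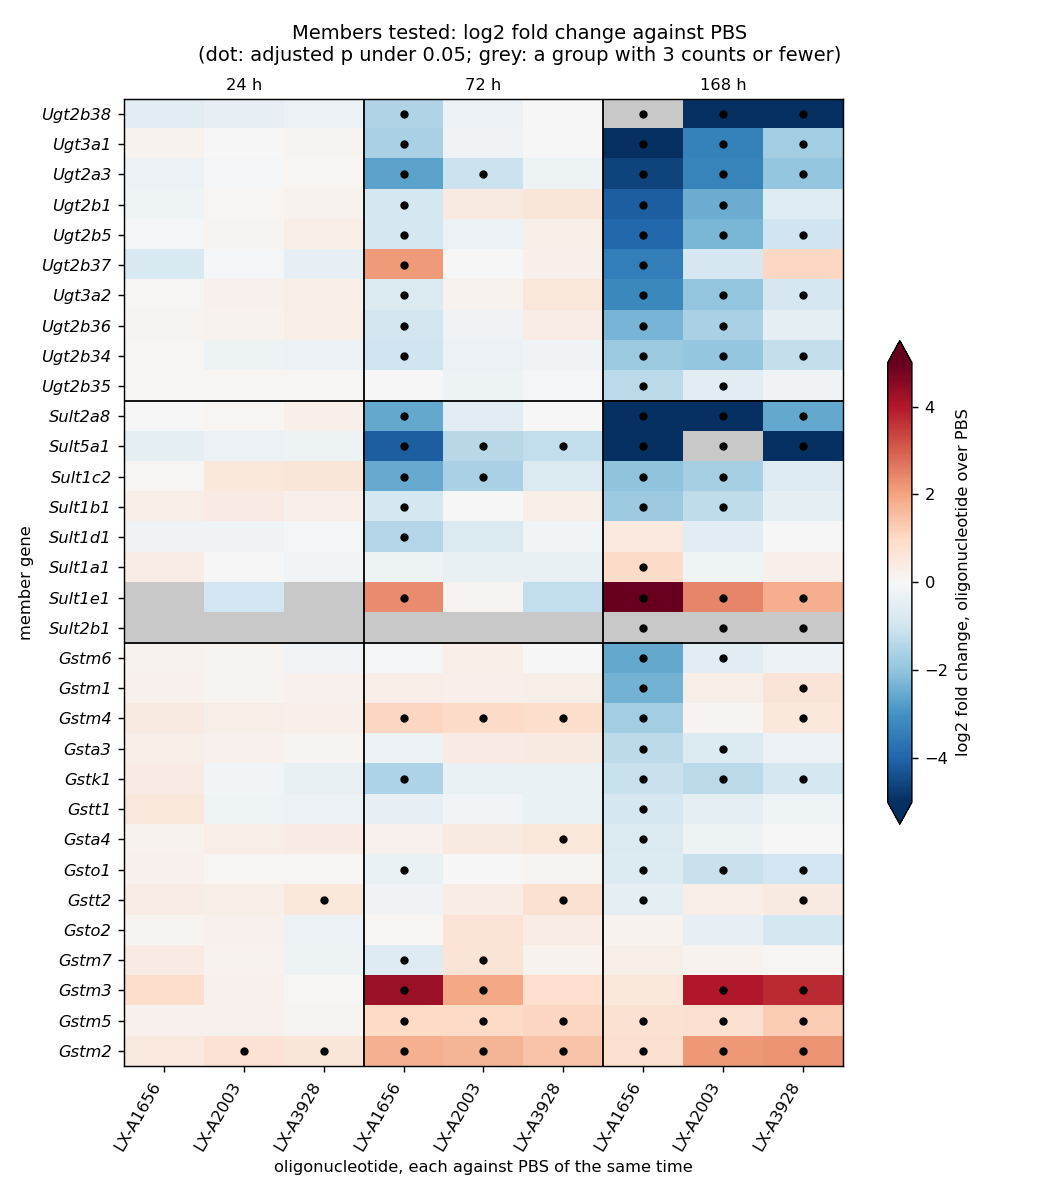
Log2 fold change against PBS of the 32 tested members (rows, by family) for the 3 oligonucleotides at 24, 72 and 168 h (columns); dots mark an adjusted p under 0.05, and grey marks a comparison in which a group had 3 counts or fewer. Colours are cut off at 5 in either direction. At 168 h the Ugt block is lower except for Ugt2b37 with LX-A3928, and not every Ugt cell is called, while the Gst block holds both directions.

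The summed level of each family put the time courses apart. For the 10 Ugt genes the sum in LX-A1656 livers was 6209 ± 244 CPM at 24 h, 3585 ± 569 at 72 h and 849.8 ± 109 at 168 h (SD, n = 4), which was 96.5%, 54.0% and 11.9% of the PBS sum at the same time. LX-A2003 livers held 105%, 94.9% and 24.2% of the PBS sum, and LX-A3928 livers 115%, 123.5% and 58.3%, the last being 34.7% without replicate 3, in which the sum was 9181 CPM. At 72 h the LX-A3928 sum was 10945 CPM in replicate 4, which also stood apart, and 7712, 6420 and 7732 CPM in replicates 1 to 3. The Sult sum was lowest at 72 h with LX-A1656, at 38.7% of PBS against 84.5% at 168 h, and at 168 h with LX-A2003, at 39.0%. It stood at 63.6% with LX-A3928 at 168 h, or 45.6% without replicate 3. The Gst sum in LX-A1656 livers was 126% of PBS at 72 h and 41.8% at 168 h, whereas it was 119% in LX-A2003 livers and 142% in LX-A3928 livers at 168 h. Sums are weighted to the genes with the highest counts, and no test was made on them.

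**Figure D2:**
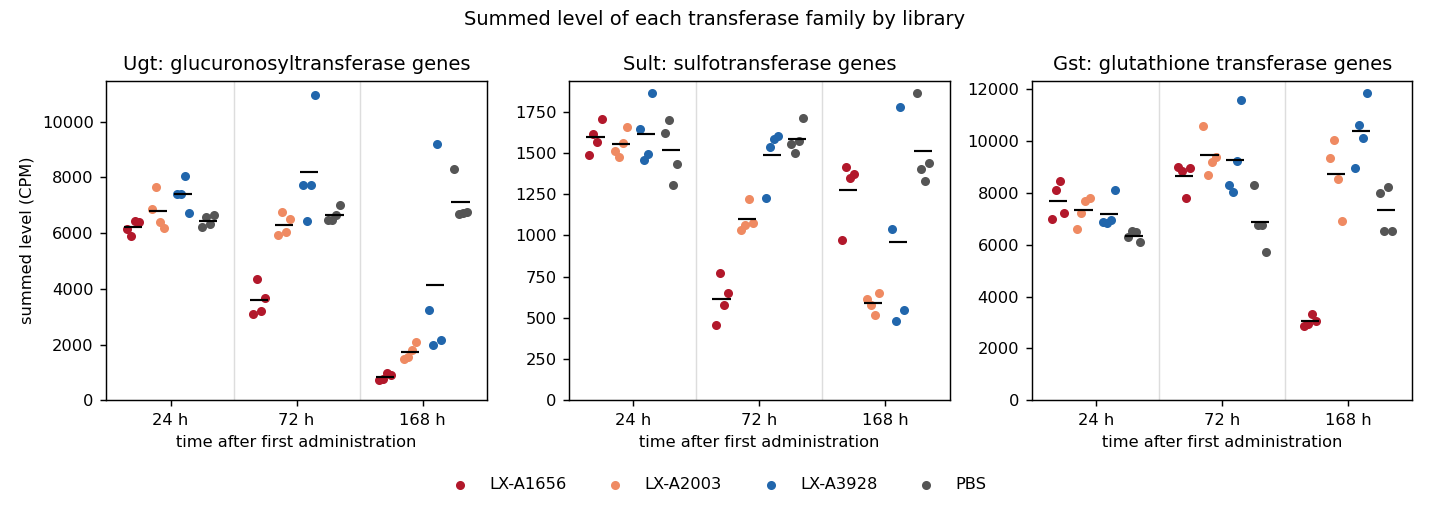
Summed CPM of all Ugt, Sult and Gst members, detected or not (panels), in every library (points) with group means (black bars), by treatment and time in hours. The Ugt sum at 168 h is 849.8 ± 109 CPM with LX-A1656 and 7114 ± 793 CPM with PBS (SD, n = 4), and the Gst sum is 3057 ± 202 CPM with LX-A1656 and 10376 ± 1206 CPM with LX-A3928.

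The make-up of the libraries moved as well, and its part in the results below was not tested. At 168 h the summed level of 7 hepatocyte markers spanned 24961 to 38080 CPM in LX-A1656 livers and 26882 to 33038 in LX-A2003 livers. In LX-A3928 livers it was at 25237 to 80569, against 56283 to 72479 in PBS livers, and 6, 5 and 5 of the 7 fell. All 6 tested markers of monocytes and recruited macrophages rose with each oligonucleotide, and their sum was 855 to 1361, 546 to 751 and 367 to 454 CPM, against 67.9 to 87.6 in PBS livers. Stellate cell and fibroblast markers rose in 6, 6 and 5 of 7 cases (1400 to 1850, 858 to 1373 and 762 to 1553 CPM, against 444 to 470 in PBS livers), and 5 of 8 sinusoidal endothelial markers fell with each oligonucleotide, while 1, 1 and 2 rose. The rises were those of Lyve1 with each and of Fcgr2b with LX-A3928, the second lost without replicate 3, and 63.9%, 55.1% and 48% of all genes were called. Cholangiocyte marker sums were 383 to 587, 212 to 290 and 135 to 292 CPM, against 85.3 to 115 in PBS livers, and 3 of 6 markers rose with each, while 1, 0 and 1 fell (2 rose and 0 fell with LX-A3928 without replicate 3). Kupffer cell sums were 374 to 498, 445 to 596 and 372 to 611 CPM, against 222 to 248 in PBS livers, with 3, 3 and 4 of 6 markers higher and 1, 0 and 0 lower (2 higher with LX-A3928 without replicate 3). Neutrophil marker sums were 12.8 to 35.2, 7.94 to 13.6 and 6.97 to 42.4 CPM, against 3.21 to 5.38 in PBS livers, with 3, 1 and 3 of 3 markers higher (2 with LX-A3928 without replicate 3), and the sums of T and NK cell and of B and plasma cell markers stayed at or under 13.3 CPM in every group, with Klrb1c at 0 counts in all groups but LX-A1656 and Ly6g in the PBS group. In whole liver, fewer cells of a type and less RNA per cell cannot be told apart. At 72 h the hepatocyte sum was 37624 to 53000 CPM in LX-A1656 livers, against 56383 to 62822 in PBS livers. Monocyte and macrophage sums were then 222 to 432 CPM with LX-A1656 and 60.3 to 74.2 with PBS. Cholangiocyte sums were 149 to 365 and 88.8 to 96.1, and Kupffer cell sums 186 to 202 and 205 to 235. Sinusoidal endothelial sums were 95.4 to 114 and 344 to 386, and already 188 to 215 and 348 to 378 at 24 h. Stellate cell and fibroblast sums overlapped at 72 h.

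Glucuronosyltransferase transcripts were lower at 168 h with each oligonucleotide. All 10 Ugt genes fell with LX-A1656 (29.7% of all genes were lower), 9 of 10 fell with LX-A2003 (25.3%), and 6 of 10 fell with LX-A3928 (20.7%), or 9 of 10 without its replicate 3, while none rose. Their median log2 fold change was -3.68, -2.12 and -0.92, the last being -1.64 without replicate 3, beside 0.10, 0.04 and 0.08 over all genes. Ugt2b1, one of the Ugt2b genes of the chromosome 5 cluster, stood at 80.7, 95.6, 122 and 136 CPM in the 4 LX-A1656 livers and 345, 356, 293 and 351 in LX-A2003 livers. The LX-A3928 libraries held 805, 509, 2962 and 664, against 2311, 1690.2, 2023 and 1551 in PBS livers. Every LX-A1656 and LX-A2003 library was below every PBS library, while replicate 3 of LX-A3928 was above them all. Here and below, ± after a log2 fold change gives its standard error, derived from the quasi-likelihood test, and not an SD of libraries. The log2 fold change was -4.12 ± 0.32 (adjusted p = 6.42e-15) with LX-A1656, -2.49 ± 0.30 (adjusted p = 2.23e-09) with LX-A2003 and -0.62 ± 0.29 (adjusted p = 0.071) with LX-A3928, where it was -1.52 ± 0.20 (adjusted p = 2.69e-08) without replicate 3. Ugt2a3, whose human counterpart conjugates bile acids, stood at 19.8, 21.3, 33.0 and 20.8 CPM in LX-A1656 livers and 54.9, 52.2, 61.1 and 63.1 in LX-A2003 livers. Levels in LX-A3928 livers were 122, 65.4, 349 and 86.4, against 700.1, 572, 503 and 581 in PBS livers. No library of any oligonucleotide reached the lowest PBS library. Its log2 fold changes were -4.63 ± 0.31 (adjusted p = 2.12e-17), -3.35 ± 0.29 (adjusted p = 2.03e-13) and -1.92 ± 0.27 (adjusted p = 1.07e-07), the last being -2.69 ± 0.21 without replicate 3.

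Ugt3a1, whose human counterpart transfers N-acetylglucosamine in place of glucuronic acid, fell with each oligonucleotide at 168 h. It stood at 5.27, 5.91, 5.49 and 4.67 CPM in LX-A1656 livers and 15.7, 15.4, 17.9 and 23.5 in LX-A2003 livers. LX-A3928 livers gave 41.5, 25.9, 137 and 24.7, against 259, 184, 146 and 176 in PBS livers. The groups did not overlap with PBS, and replicate 3 of LX-A3928 was the highest of the 12 treated libraries. The log2 fold changes were -5.16 ± 0.34 (adjusted p = 1.59e-17), -3.39 ± 0.30 (adjusted p = 8.24e-13) and -1.75 ± 0.28 (adjusted p = 1.8e-06), the last being -2.64 ± 0.20 without replicate 3. Its neighbour and close copy Ugt3a2 fell as well, at -3.24 ± 0.25, -1.97 ± 0.23 and -0.85 ± 0.23 (-1.56 ± 0.15 without replicate 3 of LX-A3928), with 42.3 to 50.8 CPM in LX-A1656 livers, against 392 to 593 CPM in PBS livers.

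The other Ugt2b genes with high counts moved the same way at 168 h. Ugt2b5 stood at 96.2 to 142 CPM in LX-A1656 livers and 293 to 421 in LX-A2003 livers. With LX-A3928 it stood at 461 to 1965, against 1661 to 2038 in PBS livers, with log2 fold changes of -3.91 ± 0.27, -2.28 ± 0.26 and -0.98 ± 0.25 (-1.71 ± 0.18 without replicate 3 of LX-A3928). Ugt2b36 stood at 244 to 304, 366 to 525 and 485 to 2169 CPM, against 1218 to 1629 in PBS livers. It fell, at -2.34 ± 0.25 with LX-A1656 and -1.64 ± 0.24 with LX-A2003 on the log2 scale, and its change with LX-A3928 was -0.46 ± 0.24, or -1.17 ± 0.17 (adjusted p = 1.46e-07) without replicate 3. For Ugt2b34 the log2 fold changes were -1.87 ± 0.41, -1.93 ± 0.41 and -1.19 ± 0.40, and the LX-A3928 call (adjusted p = 0.0125) was lost without its replicate 2 (-0.89, adjusted p = 0.0626) or replicate 4 (-0.90, adjusted p = 0.065), but was -2.11 ± 0.38 without replicate 3. Ugt2b35 fell as well, at -1.34 ± 0.21 with LX-A1656 and -0.52 ± 0.20 (adjusted p = 0.0276) with LX-A2003, a call lost for LX-A2003 without LX-A2003 replicate 1 or 2 or PBS replicate 2 or 4, with library totals (-0.10, adjusted p = 0.672) or with only the libraries compared (-0.49, adjusted p = 0.132). With LX-A3928 it was at -0.19 ± 0.20 (adjusted p = 0.474), or -0.52 ± 0.19 (adjusted p = 0.022) without replicate 3.

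The close copies Ugt2b37 and Ugt2b38 had low levels and did not follow each other. Ugt2b37 rose at 72 h with LX-A1656, at 26.8, 21.6, 21.5 and 27.9 CPM, against 2.8, 3.53, 5.41 and 10.7 in PBS livers, with no overlap and a log2 fold change of 2.11 ± 0.50 (adjusted p = 0.000459). At the same time it stood at 3.77 to 8.8 CPM in LX-A2003 livers and 2.66 to 12.2 in LX-A3928 livers, within or near the PBS range. At 168 h it was at 0.593, 0.657, 0.701 and 0.885 CPM in LX-A1656 livers and 3.86, 5.39, 5.8 and 2.55 in LX-A2003 livers. LX-A3928 livers stood at 10.3, 6.41, 41.8 and 7.9, against 13.6, 8.07, 4.58 and 5.08 in PBS livers. Of the 3 changes, that with LX-A1656 passed the test, at -3.46 ± 0.61 (adjusted p = 4.52e-06), and the change with LX-A3928 was 1.05 ± 0.49, or 0.07 ± 0.45 without replicate 3. Ugt2b38 was instead lower with LX-A1656 at 72 h, at 2.69, 6.55, 2.37 and 3.08 CPM, against 4.99, 7.73, 10.3 and 18.3 in PBS livers (-1.51 ± 0.49, adjusted p = 0.00954), a call that was lost without PBS replicate 4 (-1.07, adjusted p = 0.0864). At 168 h it was close to absent with every oligonucleotide, at 0.0742, 0, 0 and 0 CPM in LX-A1656 livers and 0, 0, 0.178 and 0.134 in LX-A2003 livers. In LX-A3928 livers it was at 0.303, 0.0754, 0.609 and 0.0746, against 18.7, 8.18, 2.29 and 9.9 in PBS livers. With 1 count in the LX-A1656 group against 323 in the PBS group it was 586.5-fold lower (exact 95% interval 104.5 to 23240.0, counting error only), and the log2 fold changes with LX-A2003 and LX-A3928 were -6.78 ± 0.81 and -5.33 ± 0.70, the last being -5.92 ± 0.85 without replicate 3 of LX-A3928. The PBS libraries themselves spanned 2.29 to 18.7 CPM.

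At 72 h the Ugt genes were already lower with LX-A1656, where 8 of 10 fell and Ugt2b37 rose (23.4% of all genes were lower), but 1 fell with LX-A2003, Ugt2a3, and none with LX-A3928. Ugt2a3 stood at 50.9, 116, 80.8 and 99.3 CPM in LX-A1656 livers and 243, 268, 259.8 and 273 in LX-A2003 livers. The LX-A3928 libraries held 406, 495, 393 and 538, against 566, 514, 453 and 659.8 in PBS livers. The LX-A1656 and LX-A2003 libraries were all below PBS, while those of LX-A3928 overlapped with it. Its log2 fold changes were -2.66 ± 0.28 (adjusted p = 6.75e-11), -1.07 ± 0.26 (adjusted p = 0.00367) and -0.26 ± 0.26. For Ugt3a1 the libraries stood at 54.0, 94.7, 50.9 and 68.2 CPM in LX-A1656 livers and 188, 196, 159 and 189 in LX-A2003 livers. Levels in LX-A3928 livers were 198, 164, 204 and 272, against 225, 216, 177 and 210.0 in PBS livers, and the LX-A1656 group alone lay wholly below PBS (-1.63 ± 0.28, adjusted p = 4.93e-06). Ugt2b1 fell with LX-A1656, at 809, 1007, 622 and 835 CPM, against 1490.3, 1219, 1642 and 1655.9 in PBS livers (-0.88 ± 0.29, adjusted p = 0.0103), and stood at 1873, 2332, 1961 and 2037 in LX-A2003 livers and 2357, 1695, 1908 and 3169 in LX-A3928 livers, changes of 0.45 ± 0.29 and 0.60 ± 0.29 that did not pass the test. The remaining falls with LX-A1656 were -0.89 ± 0.25 for Ugt2b5, -0.91 ± 0.24 for Ugt2b36, -0.71 ± 0.23 for Ugt3a2 and -0.99 ± 0.40 for Ugt2b34, of which that of Ugt2b34 (adjusted p = 0.0364) was lost without LX-A1656 replicate 1 or 3 or PBS replicate 2 or 4, and when library totals replaced TMM. At 24 h no Ugt gene passed the test with any oligonucleotide, and Ugt2b1 stood at 1297, 1211, 1317 and 1455 CPM in LX-A1656 livers and 1758, 1914, 1429 and 1415 in LX-A2003 livers. LX-A3928 livers gave 1752, 1914, 2149 and 1204, against 1379, 1396, 1457 and 1913 in PBS livers.

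**Figure D3:**
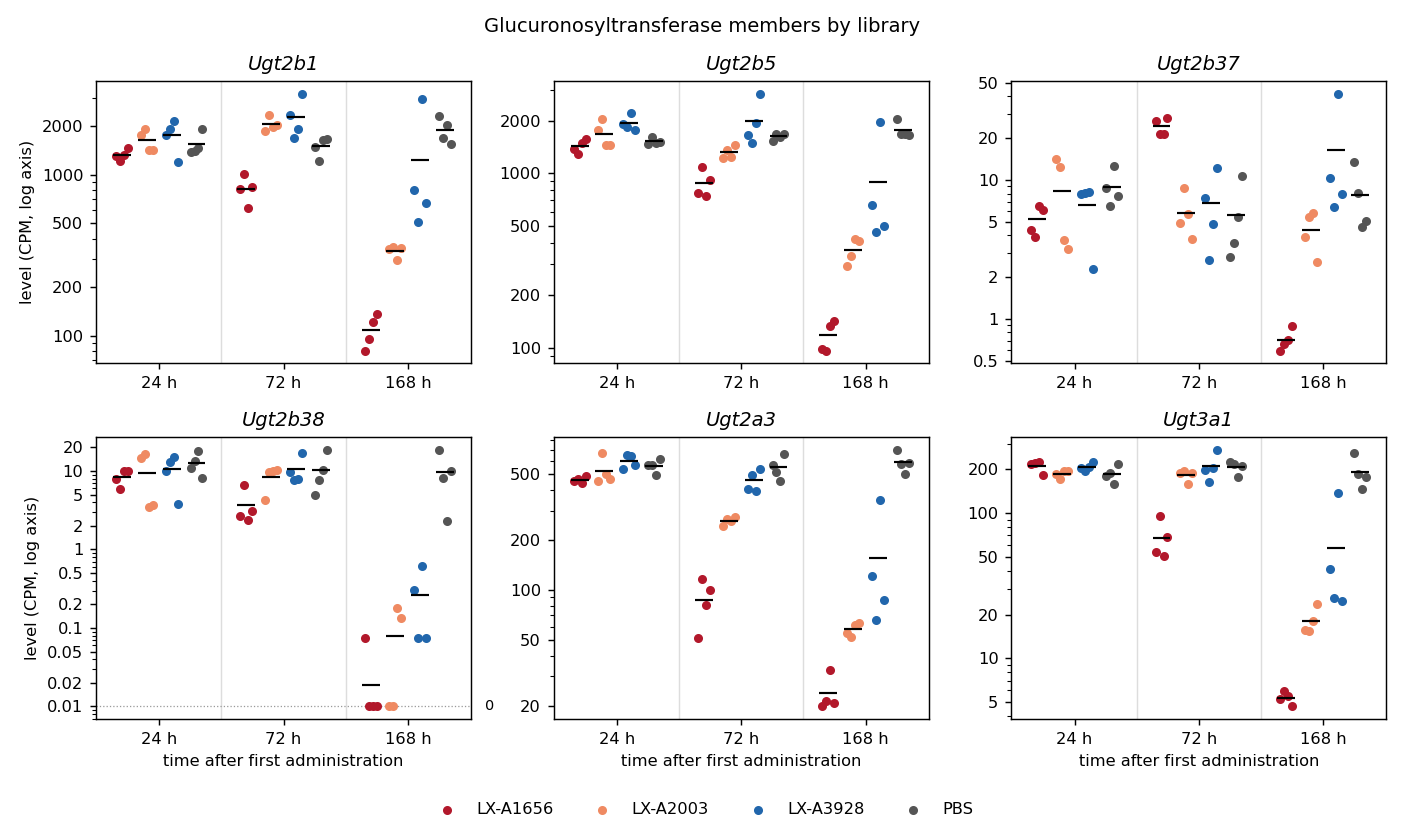
CPM on a log axis of 6 Ugt genes in every library (points) with group means (black bars), by treatment and time in hours; libraries with 0 counts lie on the dotted line. Ugt3a1 reaches 4.67 to 5.91 CPM with LX-A1656 at 168 h, against 146 to 259 CPM with PBS, and Ugt2b37 reaches 21.5 to 27.9 CPM with LX-A1656 at 72 h.

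Among the sulfotransferases some genes fell by large factors at 168 h while others rose. At 168 h, 4 of the 8 tested Sult genes fell and 3 rose with LX-A1656, 4 fell and 2 rose with LX-A2003, and 2 fell and 2 rose with LX-A3928, or 5 fell and 1 rose without replicate 3. Beside these, 63.9%, 55.1% and 48% of all genes were called, so that the 4 of 8 called with LX-A3928 are close to the share over all genes. With all libraries each count of rises includes Sult2b1, with no count in PBS livers at 168 h, and Sult1e1, at a mean of 0.443 CPM there. The single rise left without replicate 3 is that of Sult2b1. The median log2 fold change was -0.65, -0.91 and -0.22, the last being -0.98 without replicate 3. Sult2a8, which adds sulfate to bile acids in mouse liver, stood at 1.48, 0.955, 1.63 and 1.53 CPM in LX-A1656 livers and 9.39, 10.2, 14.0 and 15.4 in LX-A2003 livers. With LX-A3928 it stood at 114, 35.9, 297 and 41.6, against 886, 717, 553 and 748 in PBS livers. The LX-A1656 libraries lay below every LX-A2003 library, these below every LX-A3928 library, and these below every PBS library. Its log2 fold changes were -9.01 ± 0.48 (adjusted p = 2.38e-20), -5.89 ± 0.40 (adjusted p = 2.68e-16) and -2.58 ± 0.34 (adjusted p = 2.95e-08), the last being -3.51 ± 0.28 without replicate 3. At 72 h the levels were 114, 229.8, 101 and 136 CPM in LX-A1656 livers and 462, 563, 655 and 589.7 in LX-A2003 livers. LX-A3928 livers stood at 667, 927, 936 and 932, against 731, 781, 904 and 989.9 in PBS livers. Here the fall with LX-A1656 passed the test (-2.55 ± 0.34, adjusted p = 2.88e-08), while LX-A2003 gave -0.59 ± 0.32 and LX-A3928 0.02 ± 0.32. At 24 h it stood at 706, 693, 766 and 918 CPM in LX-A1656 livers and 891, 913, 762 and 788 in LX-A2003 livers. In LX-A3928 livers it was at 951, 836, 915 and 1037, against 877, 899.8, 676 and 699 in PBS livers, with overlapping groups.

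Sult5a1 was the one Sult gene that fell with all 3 oligonucleotides at 72 h. At 72 h it stood at 0.434, 0.909, 1.06 and 1.18 CPM in LX-A1656 livers and 6.28, 9.1, 3.68 and 5.8 in LX-A2003 livers. The LX-A3928 libraries held 7.24, 3.65, 9.25 and 6.94, against 15.5, 18.2, 17.8 and 12.5 in PBS livers. No treated library reached the PBS range, and the log2 fold changes were -4.13 ± 0.39 (adjusted p = 4.32e-12), -1.37 ± 0.32 (adjusted p = 0.00221) and -1.23 ± 0.32 (adjusted p = 0.00762). At 168 h all 3 oligonucleotides left it under 1 CPM, at 0.297, 0.537, 0.292 and 0.402 in LX-A1656 livers and 0, 0.0929, 0 and 0.134 in LX-A2003 livers. Levels in LX-A3928 livers were 0.227, 0.377, 0.487 and 0.0746, against 20.1, 21.5, 21.3 and 25.8 in PBS livers. Replicate 3 of LX-A3928, which exceeded the PBS range for Ugt2b1 and Sult1b1, did not do so for Sult5a1. The log2 fold change was -5.81 ± 0.43 (adjusted p = 6.86e-16) with LX-A1656 and -6.29 ± 0.47 (adjusted p = 3.26e-15) with LX-A3928, and with LX-A2003 it was 379-fold lower (3 counts against 729; exact 95% interval 129.2 to 1842). At 24 h it stood at 8.63, 9.04, 16.2 and 9.04 CPM in LX-A1656 livers and 21.4, 9.87, 9.49 and 8.89 in LX-A2003 livers. LX-A3928 livers gave 18.5, 17.3, 10.8 and 4.19, against 12.2, 16.1, 20.2 and 12.0 in PBS livers, and no change passed the test.

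Sult1e1, the estrogen sulfotransferase, moved the opposite way. It stood at 34.1, 29.5, 18.2 and 54.5 CPM in LX-A1656 livers at 168 h and 3.11, 2.32, 1.96 and 2.49 in LX-A2003 livers. With LX-A3928 it stood at 0.909, 0.754, 4.26 and 1.12, against 0.628, 0.621, 0.269 and 0.254 in PBS livers. All 12 treated libraries were above the 4 PBS libraries, and those of LX-A1656 were above all others. The log2 fold changes were 6.20 ± 0.54 (adjusted p = 1.29e-13), 2.43 ± 0.59 (adjusted p = 0.000503) and 1.82 ± 0.62 (adjusted p = 0.0134), and the last was no longer past the threshold without replicate 3 (1.02 ± 0.62, adjusted p = 0.171). It had risen at 72 h with LX-A1656, at 2.26, 0.455, 2.29 and 0.868 CPM, against 0.487, 0.11, 0.12 and 0.399 in PBS livers (2.34 ± 0.67, adjusted p = 0.00323), although its lowest LX-A1656 library lay within the PBS range. With means of 0.279 to 0.443 CPM in the PBS groups, Sult1e1 passed the filter on low counts through the treated groups. Its calls in comparisons with those groups are therefore no separate support. Sult1a1, the phenol sulfotransferase, rose at 168 h with LX-A1656 to 678, 906, 961 and 768 CPM, against 453, 421, 424 and 391 in PBS livers (0.97 ± 0.21, adjusted p = 9.85e-05, no overlap). In LX-A2003 livers it stood at 392, 289, 311 and 453 CPM and in LX-A3928 livers at 698, 269, 730.1 and 339.6, changes of -0.22 ± 0.21 and 0.27 ± 0.21 that did not pass the test.

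Sult1b1, Sult1d1 and Sult1e1 are neighbours on chromosome 5 and did not move together. Sult1b1, which acts on thyroid hormones, stood at 11.9, 13.0, 15.3 and 26.2 CPM in LX-A1656 livers at 168 h and 23.1, 25.5, 24.5 and 24.6 in LX-A2003 livers. LX-A3928 livers stood at 28.8, 23.5, 93.1 and 25.8, against 86.8, 58.5, 32.2 and 54.8 in PBS livers. Apart from replicate 3 of LX-A3928, which exceeded all PBS libraries, the treated libraries lay below them. It fell with LX-A1656 (-1.81 ± 0.29, adjusted p = 5.93e-07) and LX-A2003 (-1.25 ± 0.28, adjusted p = 0.00023), and with LX-A3928 it was at -0.45 ± 0.28, or -1.16 ± 0.23 (adjusted p = 4.37e-05) without replicate 3. At 72 h it had fallen with LX-A1656, at 31.5, 38.1, 25.0 and 33.5 CPM, against 61.4, 60.1, 68.3 and 48.4 in PBS livers (-0.89 ± 0.28, adjusted p = 0.00731). Sult1d1, which acts on catecholamines in mice, fell at 72 h with LX-A1656, at 78.1, 96.1, 83.3 and 76.4 CPM, against 218, 213, 190.2 and 296 in PBS livers (-1.46 ± 0.31, adjusted p = 0.000101). At 168 h its LX-A1656 libraries were back at 244, 459, 346 and 517 CPM, against 413, 180.3, 297 and 214 in PBS livers, a change of 0.50 ± 0.30, while LX-A2003 gave -0.57 ± 0.30 and LX-A3928 0.02 ± 0.30, or -0.79 ± 0.24 (adjusted p = 0.00475) without replicate 3. Sult1c2, a low-level member, fell with LX-A1656 and LX-A2003 both at 72 h (-2.52 ± 0.42 and -1.64 ± 0.39) and at 168 h (-2.02 ± 0.41 and -1.68 ± 0.41), with 0.805 to 1.79 and 0.464 to 2.55 CPM, against 3.77 to 7.04 in PBS livers at 168 h. With LX-A3928 at 168 h it was at -0.63 ± 0.39, or -1.38 ± 0.38 (adjusted p = 0.00223) without replicate 3.

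Of the members near the detection limit, some had counts in treated livers at 168 h, while Sult2a3, Sult2a4, Sult2a7, Sult3a1, Sult3a2 and Sult6b2 had none in any group at that time. Sult2b1, which acts on cholesterol and oxysterols, had 0 counts in the PBS group. It had 57, 26 and 16 counts in the LX-A1656, LX-A2003 and LX-A3928 groups, which was 10.5-, 5.56- and 3.65-fold above a floor of 3 counts over the PBS group. It passed the filter on low counts through the treated groups, so its call in the same comparison is no separate support. Sult4a1, a gene best known from brain and not tested here, had 46, 24 and 6 counts against 0, which was 8.44-, 5.13- and 1.37-fold above the same floor. Scaled to library totals, its LX-A3928 group stood at 0.141 CPM (exact 95% interval 0.0517 to 0.307), overlapping with the PBS group (0 to 0.101). Sult2a2, likewise not tested, had 61 counts with LX-A1656 against 3 with PBS, 11.2-fold higher (exact 95% interval 3.66 to 55.8), and 4 and 8 counts with LX-A2003 and LX-A3928. These intervals cover counting error only, and the folds above the floor do not cover the counting error of the treated groups. At 72 h the Sult genes with LX-A1656 counted 1 higher and 5 lower of 8, with LX-A2003 2 lower (Sult5a1 and Sult1c2) and with LX-A3928 1 lower (Sult5a1). The shares of all genes called were 48.2%, 12% and 9.8%. Their median log2 fold changes at 72 h were -1.18, -0.66 and -0.54, beside 0.05, 0.02 and 0.02 over all genes. Leaving aside Sult2b1, which had 3 counts or fewer in the groups compared, the medians of the other 7 were -0.59 with LX-A2003 and -0.36 with LX-A3928.

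**Figure D4:**
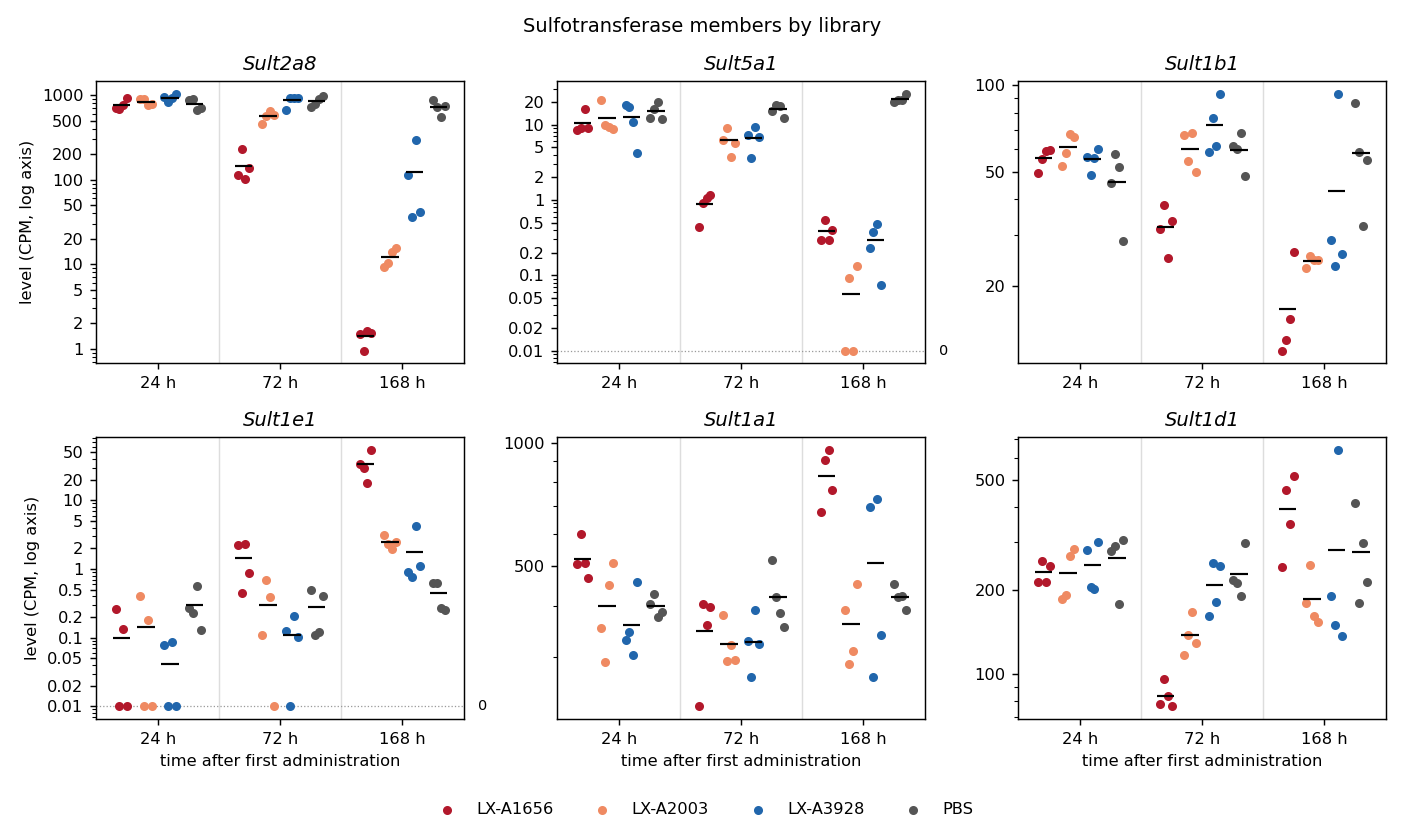
CPM on a log axis of 6 Sult genes in every library (points) with group means (black bars), by treatment and time in hours; libraries with 0 counts lie on the dotted line. Sult2a8 at 168 h steps from 0.955 to 1.63 CPM with LX-A1656 through 9.39 to 15.4 with LX-A2003 and 35.9 to 297 with LX-A3928, against 553 to 886 with PBS, while Sult1e1 reaches 18.2 to 54.5 CPM with LX-A1656.

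Among the glutathione transferases some genes rose and others fell. All calls at 24 h were in this family. Gstm2 at 24 h stood at 470.4, 577, 559 and 555 CPM in LX-A1656 livers and 481, 734, 646 and 683 in LX-A2003 livers. In LX-A3928 livers it was at 525, 552, 571 and 664, against 332, 337, 407 and 456 in PBS livers. All 12 treated libraries exceeded the 4 PBS libraries. The rise passed the test with LX-A2003 (0.73 ± 0.17, adjusted p = 0.0113) and LX-A3928 (0.59 ± 0.17, adjusted p = 0.0414), while LX-A1656 gave 0.50 ± 0.17 (adjusted p = 0.128). Both calls were near the threshold, and in the fits that lost them the log2 fold change was still 0.52 to 0.67. The LX-A2003 call was lost without LX-A2003 replicate 2 or PBS replicate 1 or 2 (adjusted p of 0.0524 to 0.0811), and the LX-A3928 call without any of its 4 libraries or any of PBS replicates 1 to 3 (adjusted p up to 0.165). Gstt2 of the theta class rose at 24 h with LX-A3928, at 127, 101, 121 and 149 CPM, against 81.1, 75.5, 84.0 and 93.2 in PBS livers (0.58 ± 0.16, adjusted p = 0.0331, no overlap), a call lost without LX-A3928 replicate 1, 3 or 4 or PBS replicate 1, 2 or 3 (adjusted p of 0.0649 to 0.162).

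At later times Gstm2 was higher with every oligonucleotide. At 72 h it stood at 1333, 1368, 1212 and 1468 CPM in LX-A1656 livers and 1385, 1115, 1349.7 and 1151 in LX-A2003 livers. The LX-A3928 libraries held 848, 838, 1203 and 1235, against 485, 349.7, 429 and 286 in PBS livers (1.80 ± 0.18, 1.69 ± 0.18 and 1.41 ± 0.18 on the log2 scale; adjusted p = 1.02e-11, 4.87e-10 and 7.41e-08). At 168 h the values were 812, 679, 787 and 752 CPM in LX-A1656 livers and 2051, 2547, 1739 and 1439 in LX-A2003 livers. Levels in LX-A3928 livers were 2246, 2081, 1439 and 2393, against 519.9, 376, 485 and 355 in PBS livers, with no overlap between any treated group and PBS. The log2 fold changes were 0.80 ± 0.17 (adjusted p = 8.51e-05), 2.16 ± 0.18 (adjusted p = 5.28e-14) and 2.23 ± 0.18 (adjusted p = 3.49e-14). Gstm5 rose in the same 6 comparisons. It stood at 22.1, 19.7, 23.8 and 23.4 CPM in LX-A1656 livers, 27.1, 18.0, 22.7 and 19.7 in LX-A2003 livers and 19.0, 18.9, 21.1 and 34.0 in LX-A3928 livers at 72 h, against 13.6, 7.84, 11.1 and 11.7 in PBS livers (1.01 ± 0.26, 0.98 ± 0.26 and 1.07 ± 0.26). At 168 h the libraries stood at 18.5, 27.7, 23.5 and 33.8 CPM in LX-A1656 livers and 24.5, 24.3, 29.9 and 27.3 in LX-A2003 livers. LX-A3928 livers gave 25.1, 23.2, 75.2 and 24.0, against 21.4, 12.0, 15.5 and 12.2 in PBS livers. Replicate 3 of LX-A3928 was the highest, and the LX-A1656 group overlapped with PBS. The log2 fold changes were 0.76 ± 0.25, 0.80 ± 0.25 and 1.26 ± 0.25, the last being 0.66 ± 0.20 (adjusted p = 0.00539) without replicate 3.

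Gstm3 rose at 72 h with LX-A1656 and LX-A2003 and at 168 h with LX-A2003 and LX-A3928. At 72 h it stood at 682, 461, 609 and 693 CPM in LX-A1656 livers and 167, 77.2, 110.3 and 122 in LX-A2003 livers. With LX-A3928 it stood at 59.2, 28.6, 55.2 and 80.8, against 45.5, 25.5, 30.2 and 22.5 in PBS livers. The LX-A1656 libraries exceeded all others, and those of LX-A3928 overlapped with PBS. The log2 fold changes were 4.31 ± 0.33 (adjusted p = 6.46e-15), 1.95 ± 0.30 (adjusted p = 3.99e-06) and 0.86 ± 0.29 (adjusted p = 0.0542). At 168 h it was at 38.1, 29.9, 53.9 and 36.8 CPM in LX-A1656 livers and 399, 479, 544 and 335 in LX-A2003 livers. LX-A3928 livers stood at 212, 569, 187 and 464, against 32.8, 23.1, 25.6 and 26.7 in PBS livers. The LX-A2003 and LX-A3928 libraries all exceeded those of PBS and of LX-A1656. LX-A2003 gave 4.02 ± 0.32 (adjusted p = 3.6e-14) and LX-A3928 3.73 ± 0.32 (adjusted p = 3.89e-13), while LX-A1656 gave 0.55 ± 0.29 (adjusted p = 0.0968). At 24 h the libraries stood at 41.5, 59.5, 68.2 and 34.5 CPM in LX-A1656 livers and 34.2, 28.6, 37.0 and 29.1 in LX-A2003 livers. In LX-A3928 livers it was at 34.3, 27.4, 17.2 and 36.4, against 28.6, 27.7, 33.1 and 21.5 in PBS livers, and no change passed the test.

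Gstm1 and Gstm4, which follow Gstm2 on chromosome 3, parted by oligonucleotide at 168 h. Gstm1 stood at 512, 519, 642 and 705 CPM in LX-A1656 livers and 4355, 4431, 3634 and 2428 in LX-A2003 livers. The LX-A3928 libraries held 3255, 5345, 3848 and 6346, against 3467, 2580.5, 3500.5 and 2581 in PBS livers. Every LX-A1656 library was below every library of the other groups at 168 h, whereas the LX-A2003 and LX-A3928 groups overlapped with PBS. It fell with LX-A1656 (-2.35 ± 0.19, adjusted p = 4.32e-15), rose with LX-A3928 (0.63 ± 0.18, adjusted p = 0.00281) and gave 0.29 ± 0.18 with LX-A2003. At 72 h it had stood at 4331, 3707, 3079.9 and 3479 CPM in LX-A1656 livers and 3907, 3218, 3171 and 3618 in LX-A2003 livers. Levels in LX-A3928 livers were 3379.6, 2751, 3379 and 4789, against 3554, 2769, 2898 and 2463 in PBS livers, with no change past the threshold. Gstm4 went both ways in time with LX-A1656. It rose at 72 h with each oligonucleotide, at 209, 279.6, 261 and 244 CPM in LX-A1656 livers and 252, 225, 208 and 221 in LX-A2003 livers. LX-A3928 livers gave 188, 153, 218 and 297, against 155, 116, 105 and 91.7 in PBS livers (1.09 ± 0.16, 0.96 ± 0.16 and 0.87 ± 0.16). At 168 h it stood at 32.4, 38.0, 46.2 and 43.4 CPM in LX-A1656 livers and 145, 154, 177 and 116 in LX-A2003 livers. With LX-A3928 it stood at 163, 198, 182 and 233, against 129, 132, 157 and 117 in PBS livers. It had fallen with LX-A1656 (-1.74 ± 0.16, adjusted p = 4.37e-13) and was higher with LX-A3928 (0.54 ± 0.15, adjusted p = 0.00361), with 0.15 ± 0.15 for LX-A2003. Gstm6 fell at 168 h with LX-A1656, at 58.2, 48.5, 62.4 and 54.5 CPM, against 379.9, 275, 384 and 288 in PBS livers (-2.57 ± 0.15, adjusted p = 5.57e-19), and with LX-A2003 (-0.56 ± 0.15), the second call being lost with library totals (-0.14, adjusted p = 0.43). Gstm7 fell at 72 h with LX-A1656, at 57.5, 93.6, 65.2 and 72.7 CPM, but rose with LX-A2003, at 181, 194, 187 and 155, against 136, 108, 111 and 95.4 in PBS livers (-0.64 ± 0.15 and 0.67 ± 0.15).

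Outside the mu class the changes at 168 h were falls, except for that of Gstt2 with LX-A3928. Gsta3, the alpha-class enzyme that detoxifies aflatoxin epoxide in mice, stood at 967, 1186, 1247 and 915 CPM in LX-A1656 livers and 1596, 1625, 1639 and 1901 in LX-A2003 livers. LX-A3928 livers stood at 2347, 1524, 3399 and 1551, against 2663, 2596, 2963 and 2528 in PBS livers. The LX-A1656 and LX-A2003 groups lay below PBS without overlap, at -1.32 ± 0.17 (adjusted p = 3.35e-09) and -0.67 ± 0.16 (adjusted p = 0.000608), and LX-A3928 gave -0.29 ± 0.16, or -0.57 ± 0.15 (adjusted p = 0.00129) without replicate 3. The call with LX-A2003 was lost when library totals replaced TMM (-0.25, adjusted p = 0.156). At 72 h its levels were 1689, 2178, 1899.6 and 2338 CPM in LX-A1656 livers and 3680.0, 2925, 3342 and 3226 in LX-A2003 livers. In LX-A3928 livers it was at 2804, 3419, 3417 and 3975, against 2991, 2556, 2397 and 2051 in PBS livers, with no change past the threshold. Gstk1, the kappa-class enzyme of mitochondria and peroxisomes, stood at 27.9, 30.3, 28.7 and 26.0 CPM in LX-A1656 livers and 20.7, 17.0, 26.2 and 33.7 in LX-A2003 livers. The LX-A3928 libraries held 25.5, 20.1, 69.9 and 18.8, against 64.8, 55.8, 59.1 and 66.4 in PBS livers. Apart from replicate 3 of LX-A3928, no treated library reached PBS. It fell with each oligonucleotide (-1.12 ± 0.27, -1.33 ± 0.27 and -0.89 ± 0.27, the last -1.52 ± 0.23 without replicate 3 and lost with only the libraries compared at -0.85, adjusted p = 0.118), and at 72 h with LX-A1656, at 16.0, 26.1, 16.4 and 22.9 CPM, against 62.4, 65.8, 55.8 and 55.8 in PBS livers (-1.56 ± 0.27, adjusted p = 6.2e-06). Gsto1, an omega-class thioltransferase that reduces dehydroascorbate, stood at 88.7, 76.1, 85.3 and 100.3 CPM in LX-A1656 livers and 68.6, 62.8, 67.8 and 58.7 in LX-A2003 livers. Levels in LX-A3928 livers were 74.5, 70.1, 68.8 and 77.9, against 167, 117, 151 and 127 in PBS livers. It was below PBS in all 12 treated libraries and fell with each oligonucleotide (-0.68 ± 0.11, -1.12 ± 0.12 and -0.95 ± 0.12). The LX-A1656 falls of Gsto1 at 168 h and at 72 h (-0.34 ± 0.11, adjusted p = 0.0123) did not pass with scaling to library totals. Gsta4, which conjugates the lipid peroxidation product 4-hydroxynonenal, fell with LX-A1656 at 168 h (-0.74 ± 0.19), Gstt1, which acts on small halogenated alkanes, likewise (-0.86 ± 0.22), both also lost under that scaling. Gsto2 passed the test against PBS with no oligonucleotide at any time when all libraries were used, and without replicate 3 it was lower with LX-A3928 at 168 h (-1.19 ± 0.48, adjusted p = 0.0353).

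Counted over the 14 tested Gst genes, 4 rose and 3 fell with LX-A1656 at 72 h, 5 rose with LX-A2003 and 5 with LX-A3928, where DESeq2 gave 6, beside 48.2%, 12% and 9.8% of all genes called. At 168 h, 2 rose and 9 fell with LX-A1656, 3 rose and 4 fell with LX-A2003, and 6 rose and 2 fell with LX-A3928, or 5 and 4 without replicate 3. The shares of all genes called at 168 h were 63.9%, 55.1% and 48%, so that 7 of 14 with LX-A2003 and 8 of 14 with LX-A3928 are near those shares. The median log2 fold change at 168 h was -0.71, -0.05 and 0.04, the last being -0.07 without replicate 3, beside 0.10, 0.04 and 0.08 over all genes. The rises with LX-A3928 at 72 h included Gstt2 (0.75 ± 0.16) and Gsta4 (0.57 ± 0.19, adjusted p = 0.0379), and that of Gsta4 was lost without any one of LX-A3928 replicates 2, 3 and 4 or PBS replicates 1, 2 and 3 and with library totals. At 168 h Gstt2 fell with LX-A1656 (-0.47 ± 0.16) and rose with LX-A3928 (0.47 ± 0.16), the first lost without LX-A1656 replicate 2 or PBS replicate 3, the second without LX-A3928 replicate 3 (0.32 ± 0.16) or PBS replicate 2 or 4. Scaling to library totals gave 4 higher and 5 lower, 7 and 2, and 7 and 2 at 168 h.

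**Figure D5:**
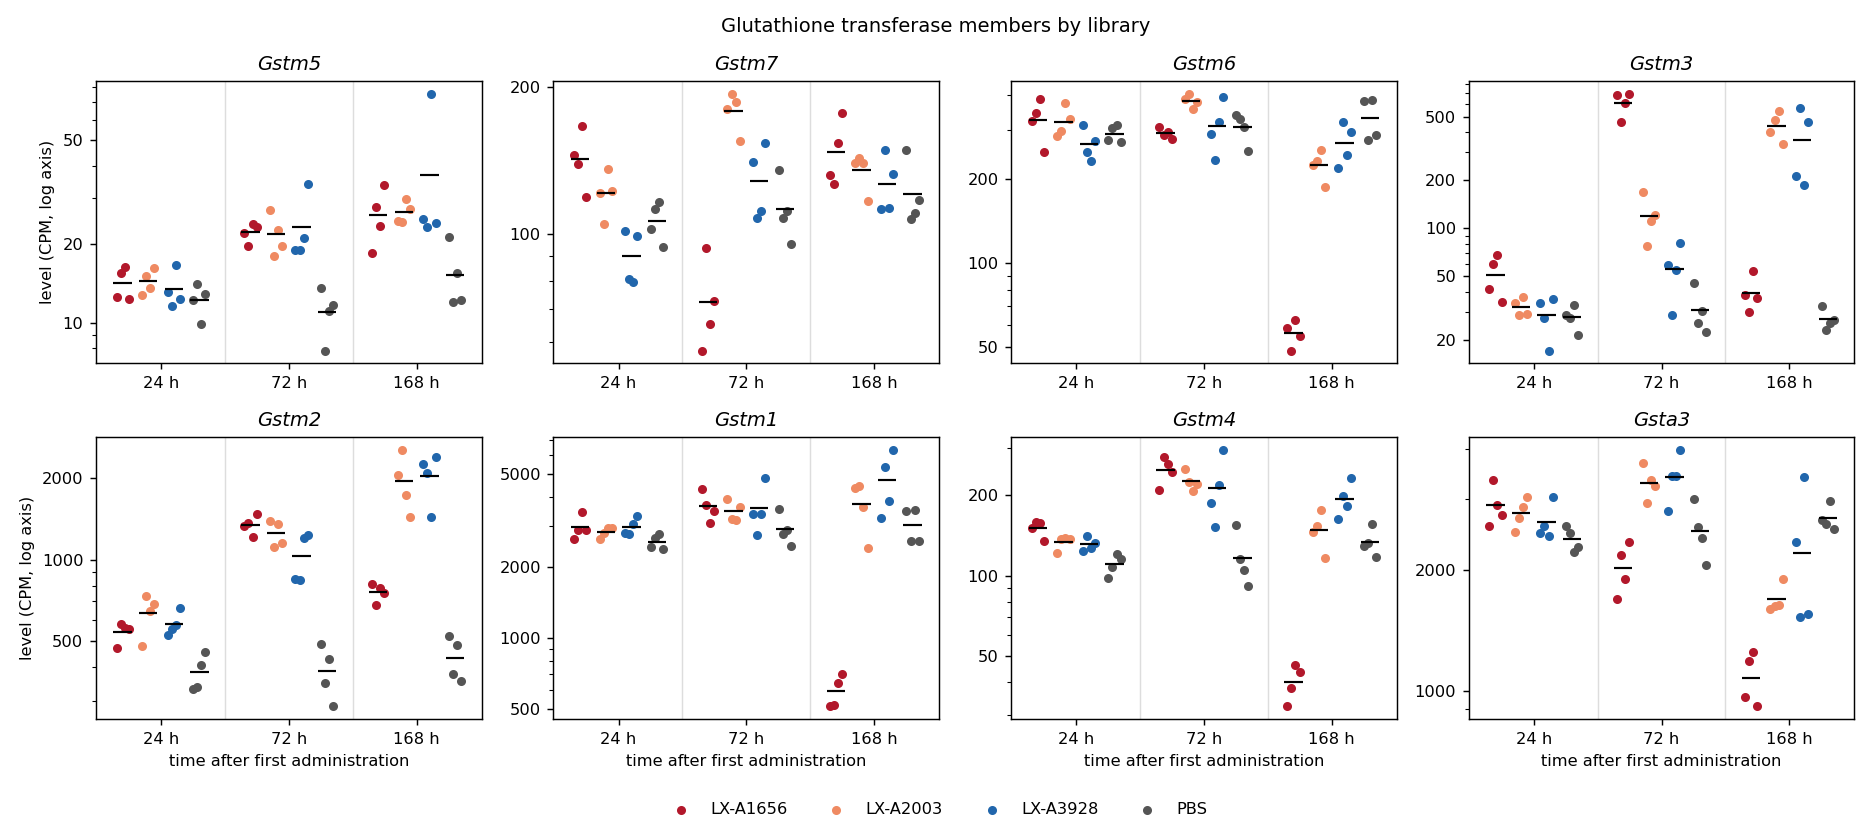
CPM on a log axis of the 7 mu-class genes in chromosomal order and of Gsta3 in every library (points) with group means (black bars), by treatment and time in hours. Gstm3 is at 461 to 693 CPM with LX-A1656 at 72 h and 29.9 to 53.9 at 168 h, and Gstm1 at 168 h is at 512 to 705 CPM with LX-A1656 and 3255 to 6346 with LX-A3928, against 2580.5 to 3500.5 with PBS.

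The oligonucleotides were also compared with each other at each time, 9 comparisons in all, each adjusted over the 12672 genes tested. At 24 h no member differed between LX-A2003 and LX-A1656 (0.284%, with 0.166% and 0.118%; 3 members at an unadjusted p under 0.05, none by DESeq2) or between LX-A3928 and LX-A2003 (0.15%, with 0.0631% and 0.0868%; 1 member unadjusted, none by DESeq2). With LX-A3928 against LX-A1656 (2.9%, with 1.5% and 1.4%), Gstm7 was lower, at -0.66 ± 0.15 (adjusted p = 0.00626) and Gstt1 at -0.85 ± 0.22 (adjusted p = 0.02) on the log2 scale, the call of Gstt1 being lost without LX-A3928 replicate 2 or 3 or LX-A1656 replicate 1 or 3 or with only the libraries compared (-0.85, adjusted p = 0.117). At 72 h LX-A1656 stood off from the others. Against it, 15 members were higher and 4 lower with LX-A2003 (35.9%, with 18% and 18%), and 17 higher and 4 lower with LX-A3928 (40.6%, with 20.4% and 20.1%). Each count of 4 lower includes Sult2b1, which passed the filter on low counts through the treated groups. Its call was lost without LX-A1656 replicate 1 or 4 in both comparisons, and without any 1 of the 4 LX-A2003 or LX-A3928 libraries. Sult2a8 was higher by 1.97 ± 0.33 with LX-A2003 and 2.58 ± 0.34 with LX-A3928, Ugt2a3 by 1.59 ± 0.27 and 2.40 ± 0.28, and Ugt3a1 by 1.45 ± 0.28 and 1.65 ± 0.28. Gstm3 was lower, at -2.36 ± 0.30 and -3.45 ± 0.31, as was Ugt2b37, at -2.08 ± 0.49 and -1.84 ± 0.48. Between LX-A3928 and LX-A2003 at 72 h no member differed (0.718%, with 0.292% and 0.426%; 8 members at an unadjusted p under 0.05, 1 by DESeq2), and the difference in Sult2a8 was 0.61 ± 0.32, which does not show that they act alike.

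At 168 h, 17 members were higher and 5 lower with LX-A2003 than with LX-A1656 (32.1%, with 18.3% and 13.8%), and 20 higher and 4 lower with LX-A3928 than with LX-A1656 (41.7%, with 23.2% and 18.5%), or 18 and 5 without replicate 3. The members lower with LX-A3928 than with LX-A1656 include Sult2b1, which passed the filter on low counts through the treated groups. That call was lost without LX-A1656 replicate 1, 2 or 4 or LX-A3928 replicate 1 or 4. Among the Ugt genes 8 of 10 were higher and none lower in each of the comparisons with LX-A1656. Gstm3 was higher with LX-A2003 than with LX-A1656 by 3.47 ± 0.31 (adjusted p = 8.03e-12), Sult2a8 by 3.13 ± 0.41 (adjusted p = 1.06e-07) and Gstm1 by 2.64 ± 0.19 (adjusted p = 8.9e-15). In the same comparison Sult1e1 was lower, at -3.77 ± 0.43 (adjusted p = 2.41e-09), as were Sult1a1 (-1.20 ± 0.21) and Sult1d1 (-1.08 ± 0.30), and Sult5a1 was 6.59-fold lower (3 counts against 23; exact 95% interval 1.99 to 34.3). The call of Sult5a1 (adjusted p = 0.0259) was lost without LX-A1656 replicate 2 or LX-A2003 replicate 1 or 3 (adjusted p of 0.0715 to 0.0887). With LX-A3928 against LX-A1656, Sult2a8 was higher by 6.44 ± 0.44 (5.51 ± 0.31 without replicate 3), Ugt2b37 by 4.51 ± 0.60 (3.52 ± 0.54) and Ugt2b1 by 3.51 ± 0.31 (2.61 ± 0.20). Sult1e1 was lower, at -4.37 ± 0.45 (-5.18 ± 0.46 without replicate 3), and Sult1a1 at -0.70 ± 0.21 (adjusted p = 0.00628), the call of Sult1a1 being lost without LX-A3928 replicate 2 (-0.49, adjusted p = 0.0519) or with only the libraries compared (-0.67, adjusted p = 0.168). Between LX-A3928 and LX-A2003 at 168 h, 8 members were higher and none lower (8.1%, with 5.33% and 2.77%), of which 7 were Ugt genes and 1 was Sult2a8, while no Gst gene differed. Without replicate 3, 3 of these calls were left, Ugt2b1 (0.97 ± 0.19, adjusted p = 0.00177), Ugt3a1 (0.75 ± 0.19, adjusted p = 0.0205) and Sult2a8 (2.38 ± 0.26, adjusted p = 8.04e-08). In a fit on the 8 libraries of these groups alone no member passed, with Sult2a8 at 3.40 (adjusted p = 0.0996) and Ugt2b1 at 1.96 (adjusted p = 0.291). Ugt2b37, at 1.90 ± 0.50 in that comparison, was at 0.91 ± 0.45 (adjusted p = 0.419) without it, and the call was also lost without LX-A2003 replicate 1 (1.84, adjusted p = 0.05005).

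Whether an effect against PBS differed between 168 h and 24 h was tested as an interaction. It was more positive at 168 h for 2 members and more negative for 23 with LX-A1656 (47% of all genes differed, 23.2% and 23.8% in these directions), for 3 and 16 with LX-A2003 (38.5%, with 20% and 18.5%), and for 4 and 8 with LX-A3928 (32.4%, with 17.4% and 15%), or 3 and 16 without replicate 3. The 2 with LX-A1656 were Sult1e1 and Sult2b1, and Sult1e1 was also among the 3 with LX-A2003. Both genes passed the filter on low counts through the treated groups, so these calls are no separate support. Without replicate 3 of PBS at 24 h the calls of Sult2b1 with LX-A1656 and of Sult1e1 with LX-A2003 were lost. Sult2a8 gave -8.98 ± 0.55, -5.98 ± 0.49 and -2.82 ± 0.46 on the log2 scale for LX-A1656, LX-A2003 and LX-A3928, the last being -3.75 ± 0.35 without replicate 3. Gstm3 gave 3.81 ± 0.43 with LX-A2003 and 3.67 ± 0.42 with LX-A3928, and Gstm2 1.43 ± 0.24 and 1.64 ± 0.25. For Ugt3a1 with LX-A1656 the difference was -5.34 ± 0.42.

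Genes that supply or surround the transferases were taken from lists written down with earlier results of these data known, and their counts are descriptions. For LX-A1656, then LX-A2003, then LX-A3928, 48.2%, 12% and 9.8% of all genes were called at 72 h and 63.9%, 55.1% and 48% at 168 h, against which these counts stand. Of 5 genes of UDP-glucuronic acid supply and glucuronide removal, the numbers higher and lower at 168 h were 2 and 3 with LX-A1656, 2 and 2 with LX-A2003 and 2 and 1 with LX-A3928, with median log2 fold changes of -0.85, -0.31 and -0.29. Ugdh, which makes UDP-glucuronic acid, rose at 72 h (1.89 ± 0.13, 1.15 ± 0.13 and 1.01 ± 0.13) and at 168 h with LX-A2003 (0.98 ± 0.13) and LX-A3928 (1.26 ± 0.13), and by 0.37 ± 0.13 (adjusted p = 0.0115) with LX-A1656 at 168 h. Slc35d1, which carries UDP-glucuronic acid into the endoplasmic reticulum, fell at 168 h with LX-A1656 (-1.23 ± 0.16), and Gusb, the lysosomal glucuronidase, rose (0.96 ± 0.14). Of 7 tested genes of sulfate donor supply and sulfate removal, higher and lower numbered 2 and 4 with LX-A1656, 0 and 4 with LX-A2003 and 1 and 3 with LX-A3928, or 0 and 2 without replicate 3 of LX-A3928, with medians of -0.52, -0.53 and -0.35. Slc26a1, a sulfate transporter, fell, with log2 fold changes of -2.27 ± 0.23, -0.77 ± 0.22 and -0.64 ± 0.22, the last not past the threshold without replicate 3 (-0.45 ± 0.22, adjusted p = 0.0842), and Bpnt1, which clears the by-product of sulfation, at -0.92 ± 0.15, -0.55 ± 0.15 and -0.54 ± 0.15.

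Of 11 tested genes of glutathione synthesis and turnover, higher and lower numbered 5 and 2 with LX-A1656, 2 and 0 with LX-A2003 and 3 and 0 with LX-A3928 at 72 h (shares of all genes 48.2%, 12% and 9.8%), and 4 and 5 with LX-A1656, 4 and 3 with LX-A2003 and 5 and 4 with LX-A3928 at 168 h (shares of 63.9%, 55.1% and 48%). G6pdx, the first enzyme of the pentose phosphate pathway and a source of NADPH, rose at 168 h by 2.81 ± 0.21, 2.44 ± 0.21 and 1.63 ± 0.21, and Gss, which completes glutathione, by 1.88 ± 0.12 with LX-A1656 at 72 h and by 1.33 ± 0.12 with LX-A2003 at 168 h. Of 15 tested NRF2 targets, which share Gclc, Gclm, Gsr, Slc7a11 and G6pdx with the glutathione list and Ugdh with the UDP-glucuronic acid list, the numbers were 11 and 2 with LX-A1656, 6 and 0 with LX-A2003 and 3 and 0 with LX-A3928 at 72 h, and 6 and 5 with LX-A1656, 8 and 2 with LX-A2003 and 9 and 2 with LX-A3928 at 168 h. Their median log2 fold change was 1.02, 0.41 and 0.22 at 72 h, beside 0.05, 0.02 and 0.02 over all genes, and 0.26, 0.95 and 0.87 at 168 h. Srxn1, a sulfiredoxin, rose by 3.84 ± 0.19 with LX-A1656 at 72 h and by 3.03 ± 0.18, 3.08 ± 0.18 and 2.95 ± 0.18 at 168 h, and Nqo1, a quinone reductase, by 3.19 ± 0.24, 2.71 ± 0.23 and 2.71 ± 0.23 at 168 h.

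Of 13 tested regulators of these genes, higher and lower numbered 3 and 8 with LX-A1656, 2 and 2 with LX-A2003 and 0 and 4 with LX-A3928 at 72 h, and 1 and 9 with LX-A1656, 2 and 7 with LX-A2003 and 2 and 7 with LX-A3928 at 168 h (shares of all genes 63.9%, 55.1% and 48%), with medians at 168 h of -0.61, -0.40 and -0.59. Nr1i3, which encodes CAR, fell, with log2 fold changes of -2.67 ± 0.20, -1.93 ± 0.19 and -2.25 ± 0.19 at 168 h, and Ahr, the aryl hydrocarbon receptor, rose, at 1.88 ± 0.16, 1.24 ± 0.15 and 1.04 ± 0.15. Cebpa, a hepatocyte transcription factor, fell at 168 h with LX-A1656 (-2.44 ± 0.25). Of 10 tested conjugating enzymes outside the symbol rule, higher and lower at 168 h numbered 2 and 6 with LX-A1656, 1 and 5 with LX-A2003 and 1 and 2 with LX-A3928, or 1 and 4 without replicate 3 of LX-A3928, with medians of -1.07, -0.53 and -0.14. Mgst1, a membrane-bound glutathione transferase, fell, with log2 fold changes of -1.98 ± 0.22, -1.36 ± 0.22 and -0.54 ± 0.21 (-1.03 ± 0.18 without replicate 3), and Glyat, which conjugates glycine, at -2.95 ± 0.28 with LX-A1656 and -1.17 ± 0.27 with LX-A2003. Hpgds, a prostaglandin D synthase of the sigma class, rose by 2.61 ± 0.52 with LX-A3928, or 1.97 ± 0.50 without replicate 3. Of 6 exporters of conjugates the numbers were 3 and 2 with LX-A1656, 3 and 2 with LX-A2003 and 2 and 2 with LX-A3928, with medians of 0.26, 0.49 and 0.26: Abcg2, which exports sulfate conjugates, fell, with log2 fold changes of -3.23 ± 0.26, -2.67 ± 0.25 and -1.68 ± 0.24 (-2.31 ± 0.19 without replicate 3), and Abcc1, which exports glutathione and glucuronide conjugates, rose, at 2.00 ± 0.36, 1.73 ± 0.36 and 1.75 ± 0.37.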

How the data were processed

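Liver RNA was extracted in TriPure reagent after bead homogenization and sequenced with the Ion AmpliSeq Transcriptome Mouse kit, which reads each gene through targeted amplicons, per the labels' protocols. The authors deposited raw read counts per gene for 48 libraries, whole numbers with no normalization. The aligner, the genome build and the counting rules are not stated in the sources used here. From these counts, TMM-scaled CPM, log2 fold changes and p-values were computed here with edgeR 4.0.16 in R 4.3.3: a robust quasi-likelihood fit of 12 group means over all 48 libraries, on the 12672 of 23930 genes kept by filterByExpr, with Benjamini-Hochberg adjustment over those genes and a threshold of 0.05. Totals ran from 8140065 to 17191129 counts with a median of 10659453. The common biological coefficient of variation was 0.2114 with 36 residual degrees of freedom. The test was also tried on counts simulated from the fitted means, with far fewer genes changed than were called at 168 h. That trial does not bear on the scaling at 168 h. In all, 23 comparisons were made: 9 of an oligonucleotide with PBS, 9 between oligonucleotides, 3 interactions and 2 between PBS times.

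Members were grouped by symbol, and members, gene lists and marker lists were chosen with earlier results of these data known. Genes were named by rule: up to 3 highest and 3 lowest log2 fold changes a family and comparison (over all members in comparisons other than with PBS), among members with an adjusted p under 0.05 and a mean of at least 10 CPM in 1 group, the 3 members of each family with the most counts in PBS livers at 24 h, and members not detected or not tested. Values in every library were given for up to 14 members by that rule; those of other members, and members named outside it, were added after their values were seen, to account for every member. Genes of the support lists were named by smallest p, up to 3 a list and comparison. Alternatives were DESeq2 1.42.0, library totals, no filter on low counts, only the libraries compared, the replicate number as a block, and leaving out each library. Promoters are RefSeq sequence of GRCm38.p6, and coding identity is from global alignment of GENCODE M21 coding sequence.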

Additional observations from a re-analysis of the deposited data

Results flagged for a closer look

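Among the 14 members with values given for every library, the highest or lowest of 4 libraries lay apart from the other 3 by more than Dixon's 95% critical value in 13 of 168 groups, where chance gives about 1 group in 20. Of these, 6 were in replicate 3 of LX-A3928 at 168 h or replicate 4 of LX-A3928 at 72 h, and 1 each in replicate 4 of LX-A2003 at 168 h and replicate 4 of PBS at 24 h, libraries that also stood apart from their groups over all genes. In replicate 3 at 168 h, Ugt2b1 stood at 2962 CPM (509 to 805 in the others), Ugt3a1 at 137 (24.7 to 41.5), Sult1b1 at 93.1 (23.5 to 28.8), Gstk1 at 69.9 (18.8 to 25.5) and Gstm5 at 75.2 (23.2 to 25.1). In replicate 4 at 72 h, Gstm5 stood at 34.0 CPM (18.9 to 21.1). Other high libraries were replicate 4 of LX-A2003 at 168 h for Gsta3 (1901 CPM, with 1596 to 1639 in the others), replicate 3 of LX-A1656 at 168 h for Ugt2a3 (33.0, with 19.8 to 21.3), replicate 3 of LX-A1656 at 24 h for Sult5a1 (16.2, with 8.63 to 9.04), replicate 1 of LX-A2003 at 24 h for Sult5a1 (21.4, with 8.89 to 9.87) and replicate 4 of PBS at 24 h for Ugt2b1 (1913, with 1379 to 1457). Low libraries were replicate 1 of LX-A3928 at 72 h for Sult2a8 (667, with 927 to 936) and replicate 1 of LX-A2003 at 24 h for Gstm4 (122, with 137 to 139).

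The effect against PBS differed between 168 h and 24 h, by the interaction test, for several members. The differences on the log2 scale were -8.98 for Sult2a8 and -5.335 for Ugt3a1 with LX-A1656. With LX-A2003 they were 3.81 for Gstm3, 1.43 for Gstm2, -6.36 for Ugt2b38 and -5.98 for Sult2a8. With LX-A3928 they were 3.67 for Gstm3, 1.64 for Gstm2, 1.13 for Gstm5, -6.03 for Sult5a1, -5.05 for Ugt2b38 and -2.82 for Sult2a8. Without replicate 3 of LX-A3928 at 168 h that of Sult2a8 was -3.75 and that of Ugt2b38 -5.64. That of Gstm5 was 0.53 (adjusted p = 0.139) without it. For 3 further interaction results a group had 3 counts or fewer, and no fitted value is given.

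Counts also appeared in members outside the tests. At 168 h Sult2a2 stood at 1.279 CPM, here scaled to library totals, in the LX-A1656 group (exact 95% interval 0.978 to 1.64), and Sult4a1 at 0.964 (0.706 to 1.29) in the LX-A1656 group and 0.563 (0.361 to 0.838) in the LX-A2003 group. The PBS group had 0 counts of Sult4a1, with an exact 95% upper limit of 0.1012 CPM, and Sult2a2 stood there at 0.0823 (0.017 to 0.2405).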

How the results depend on the processing

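Of 101 values of members named by rule, none reversed under any alternative, and DESeq2 kept all on their side of the threshold. Library totals ended 3 calls, no filter 3 (Gstm2 and Gstt2 with LX-A3928 at 24 h and Gsto1 with LX-A1656 at 72 h), only the libraries compared 8, the replicate block 1 (Gstm2 with LX-A3928 at 24 h, 0.60, adjusted p = 0.0554), and leaving out a library ended calls of 9 named values. Detected members numbered 34 at a threshold of 0.5 CPM, 30 at 5 CPM and 34 with library totals.

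With only the libraries compared (10755 to 12192 genes tested), changed members numbered 5 for LX-A1656 and 6 for LX-A3928 against PBS at 24 h, 18 for LX-A2003 against PBS at 72 h and 9 for LX-A3928 against PBS at 168 h, and 5, 1 and 0 for LX-A3928 against LX-A1656 at 24 h and against LX-A2003 at 72 h and 168 h. For LX-A3928 against PBS at 24 h the count was 1 with library totals, 0 with no filter and 1 with the replicate block, which moved no other count by over 1.5 times. DESeq2 gave 1 for LX-A3928 against LX-A2003 at 72 h. The cause was not tested.

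Leaving out each library gave 0 to 1 for LX-A2003 and 0 to 2 for LX-A3928 against PBS at 24 h, 0 to 1 for LX-A2003 and 1 to 3 for LX-A3928 against LX-A1656 at 24 h, 0 to 1 and 3 to 12 for LX-A3928 against LX-A2003 at 72 h and 168 h, and 12 to 19 for the LX-A3928 interaction. The labels do not state whether replicate numbers pair the samples, and no sign of pairing was seen. The correlation of same-numbered deviations ran from -0.6583 to 0.4351. It was over 0.1 in 11 of 72 pairs and in all 4 pairs of none of 18 comparisons (median 0.0054, beside 0.0015 for other numbers). For members at a few counts a library, such as Sult2a2, Sult2b1 and Sult4a1, counting error limits what differences were detectable.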
